A study of Mus musculus with 6 samples.

Results

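In mouse lens, 10 genes listed for the Wnt pathway were followed. The secreted proteins were the antagonists Sfrp1, Sfrp2 and Sfrp5 and, listed beside them, the Dickkopf family member Dkk3. The others were the frizzled receptors Fzd3 and Fzd6, the co-receptors Lrp5 and Lrp6, the nuclear factor Tcf7l2 and the feedback target Axin2. Every probe annotated to one of these 10 genes was taken, which gave 25 of the 45281 probes on the array and 10 of the 19057 genes that the annotation names. The lenses came from mice at postnatal day 4 on a mix of C57BL/6J and C3A.Blia, either Tdrd7 null or Tdrd7 heterozygous, so the controls also carried 1 altered copy of Tdrd7. The labels used here name neither the mutant allele nor the number of mice behind an array. Each genotype was measured on 3 arrays, called a, b and c in the order of the table. Whether the arrays of a genotype stand for different animals is not stated, so every p-value here speaks for the spread between arrays, which may be technical. The number of arrays limits the precision.

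Wnt proteins are secreted ligands that bind frizzled receptors together with an Lrp5 or Lrp6 co-receptor. Through the canonical branch they stabilise beta-catenin, which joins Tcf and Lef factors in the nucleus, and Axin2 is one of the genes switched on in many tissues. Sfrp proteins carry a frizzled-like cysteine-rich domain and bind Wnt ligands outside the cell. In the lens, Wnt genes and their antagonists are best known from the anterior epithelium, and Fzd3 and Fzd6 also act in planar polarity, the alignment of cells within a sheet.

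The 6 arrays detected 30.7% to 34.8% of their probes, and the lens fiber markers Mip, Lim2, Bfsp2, Dnase2b, Crygd, Crybb1 and Cryba1 were each detected on at least 3 of them, while Gja3 was not. Tdrd7 itself had a raw signal of 12473 to 13065 on the heterozygous arrays and 1103 to 1266 on the null arrays, in the direction of the genotype labels. Null array b stood furthest from its group, with a Pearson correlation of 0.968 to the mean of its 2 partners, where the other 5 arrays reached 0.983 to 0.992.

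A probe was called detected on an array where its detection p-value, the share of negative controls at least as bright, was under 0.05. The lowest raw signal of any detected probe was 74.3 to 85.4, depending on the array. Probes detected on at least 3 of the 6 arrays were tested, and 13 of the 25 member probes (52%) met this, against 32.3% of all probes. These 13 probes covered 7 members. The other 12 probes had raw signals of 60.0 to 80.5 on every array. Of these, 9 were detected on no array and 3 on a single array. At a stricter detection p-value of 0.01, 11 member probes met the rule, and the 2 that dropped out were those of Lrp6.

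**Figure D1:**
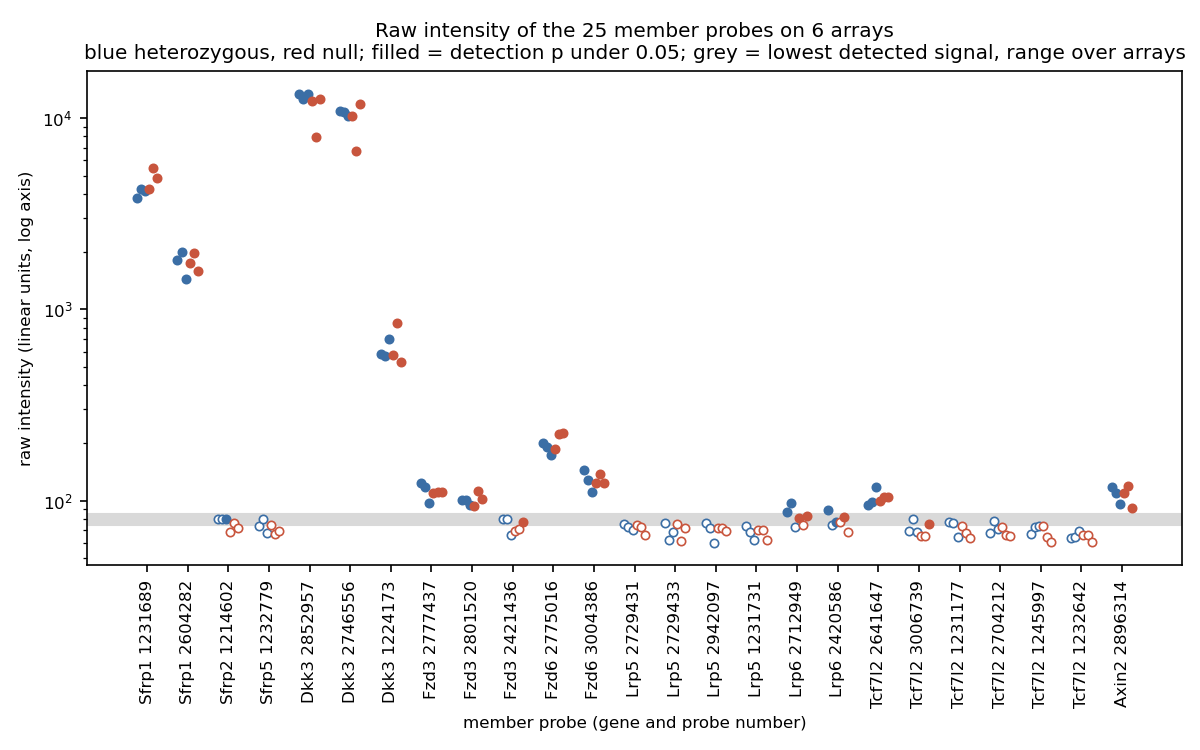
Raw intensity (log axis) of the 25 member probes on 3 heterozygous (blue) and 3 null (red) arrays, filled where detected, with the range of the lowest detected signal (74.3 to 85.4) in grey. Sfrp1 and Dkk3 probes sit far above the grey band, Fzd3, Fzd6, Tcf7l2 and Axin2 have 1 or 2 probes just above it, and all 4 Lrp5 probes and 5 of 6 Tcf7l2 probes sit in or below it.

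The comparison asked whether these genes differ between null and heterozygous lens. None of the 13 tested probes passed an adjusted p of 0.05 (limma, adjusted over 14636 probes), where 0.0137% of all tested probes passed. At an unadjusted p under 0.05 the member count was again 0, against 4.11% of all probes, and the smallest member p was 0.125. The groups did not overlap for 1 member probe (7.69%), of Sfrp1, where this held for 10.9% of all probes in either direction and for 5.43% with null higher. Over the 7 members with a tested probe, taking the brightest probe of each, 3 differences were above 0 and 4 below. Their median was -0.01 on the log2 scale, as was that of all 8626 genes tested. The median size of the difference without its sign was 0.13 for the members and 0.13 for all genes.

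**Figure D2:**
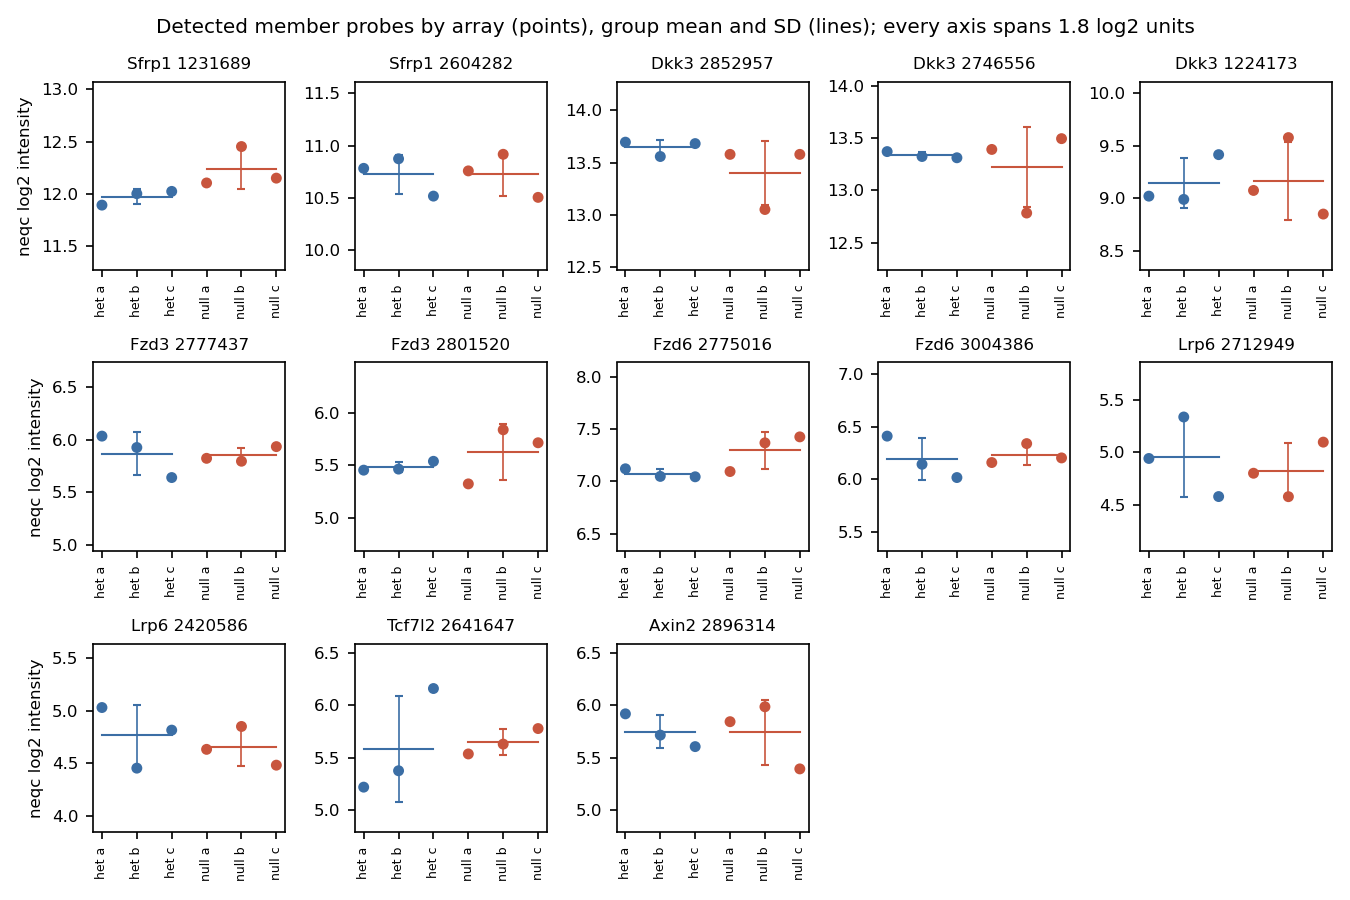
Normalised log2 intensity of the 13 tested member probes on each array (points), with the group mean and SD (lines) and 1.8 log2 units on every axis. The null points lie wholly above the heterozygous points for 1 probe, Sfrp1 ILMN_1231689, and null array b stands alone for the first 2 Dkk3 probes.

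Sfrp1, a secreted Wnt-binding antagonist of the lens epithelium, was detected on all 6 arrays by both of its probes. The brighter probe, ILMN_1231689, read 3809, 4277 and 4157 raw units in heterozygous lens and 4244, 5479 and 4873 in null lens, here and below in the order of arrays a, b and c. The group means were 4081 ± 243 (SD, n = 3) for heterozygous lens and 4865 ± 618 (SD, n = 3) for null lens. On the raw scale null array a lay within the heterozygous range, and after normalisation the lowest null array, at 12.11 log2 units, lay above the highest heterozygous one, at 12.02. The difference was 0.26 on the log2 scale (SE 0.156, 95% interval -0.09 to 0.61, adjusted p = 0.964), a 1.20-fold higher signal that did not pass. The second probe, ILMN_2604282, read 1807, 1999 and 1438 in heterozygous and 1741, 1966 and 1590 in null lens. These values overlapped throughout, and the difference was 0.0021 (SE 0.172, interval -0.38 to 0.39). So the probes gave the same sign with sizes 0.26 apart, and over the 6 arrays their log2 values had a Pearson correlation of 0.27, which became -0.51 without null array b.

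Sfrp2, a relative of Sfrp1, was near the detection limit. Its 1 probe read 79.7, 80.1 and 80.5 in heterozygous and 68.1, 76.7 and 72.2 in null lens, and it was detected on heterozygous array c alone. The raw values did not overlap, while the normalised values did, with null array b at 4.66 above heterozygous array b at 4.62. The probe did not meet the detection rule and was not tested. Sfrp5, a further relative known in human from the retinal pigment epithelium, was detected on no array, with raw signals of 66.9 to 79.6.

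Dkk3, a divergent member of the Dickkopf family of secreted proteins, gave the brightest member signals and the clearest conflict between probes of 1 gene. Probe ILMN_2852957 read 13369, 12564 and 13380 in heterozygous lens and 12315, 7931 and 12488 in null lens. Probe ILMN_2746556 read 10920, 10801 and 10277 in heterozygous lens and 10201, 6732 and 11872 in null lens. Null array b was the lowest array for both probes, and the other null arrays lay close to the heterozygous range. Probe ILMN_1224173 read 582, 572 and 699 in heterozygous lens and 578, 844 and 529 in null lens, so null array b was its highest array.

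The Dkk3 differences were -0.24 (SE 0.18, 95% interval -0.64 to 0.16), -0.11 (SE 0.198) and 0.03 (SE 0.214) for these probes in the same order, with adjusted p of 0.964, 0.964 and 0.995. Without null array b they were -0.07, 0.11 and -0.18. Against the mean of the other 5 arrays, null array b deviated by -0.57, -0.59 and 0.51. The first pair of probes had a Pearson correlation of 0.92 over 6 arrays and of -0.35 over the 5 arrays left without null array b. The platform annotation ties all 3 probes to the same RefSeq transcript, and where on it each probe lies was not analysed here.

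**Figure D3:**
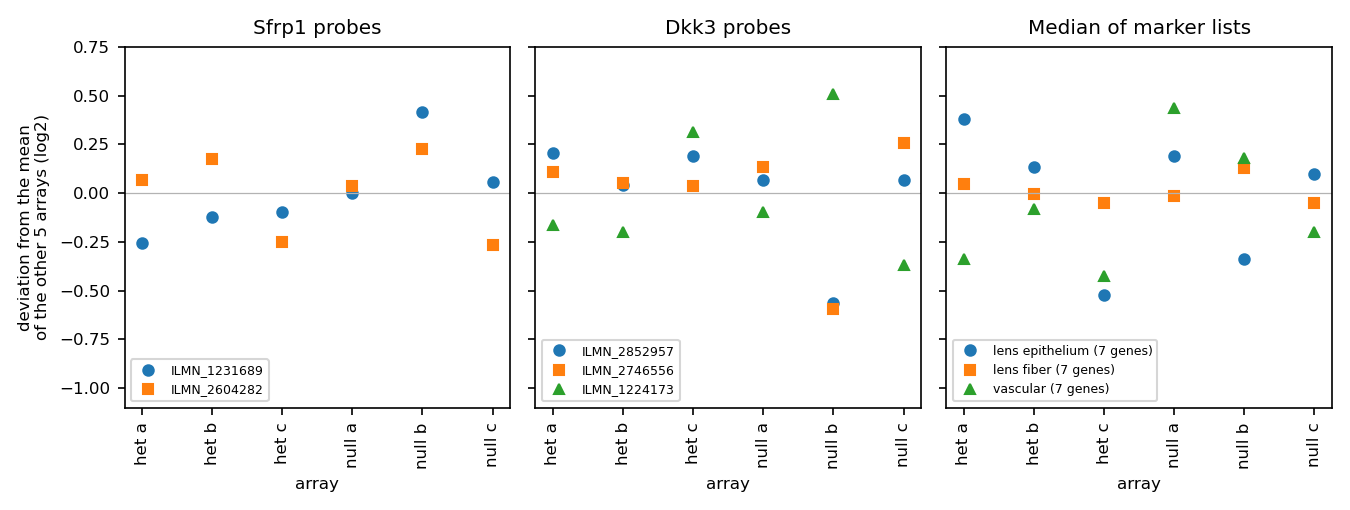
Deviation of each array from the mean of the other 5 (log2), for the probes of Sfrp1 and Dkk3 and for the median gene of the lens epithelium, lens fiber and vascular marker lists. On null array b the Dkk3 probes split, at -0.57 and -0.59 against 0.51, both Sfrp1 probes were high, and the epithelium list was at -0.34.

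By the median of their list, other lens epithelium markers were low on 1 array of each genotype. Foxe3 went otherwise, with all null arrays, also null array b, above every heterozygous array after normalisation. Such a split with null higher held for 5.43% of all tested probes. Foxe3 was near the detection limit, at mean raw signals of 82.7 in heterozygous and 88.1 in null lens. It was detected on 2 heterozygous and 3 null arrays. Of 8 such genes other than the members, 7 were tested, 3 higher and 4 lower in null lens, with a median difference of -0.05 and no call. Npnt was not detected on enough arrays. Their summed raw signal was 2266 to 3720 on the heterozygous and 2488 to 3327 on the null arrays, and the lowest arrays of each group were heterozygous array c and null array b. Relative to the other arrays, the median of these genes stood at a log2 difference of -0.52 on heterozygous array c and of -0.34 on null array b. Sfrp1 probe ILMN_1231689 did not follow these markers, at -0.10 and 0.42 on the same arrays. The other Sfrp1 probe, ILMN_2604282, was low on heterozygous array c (-0.25) but not on null array b (0.23). The brightest Dkk3 probe followed on null array b (-0.57) but not on heterozygous array c (0.19). In whole lens RNA, fewer cells of a type and less RNA per cell cannot be told apart.

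Markers of neighbouring tissues were also read beside the members. Vascular genes were 6 higher and 1 lower among 7 tested of 9, with a median difference of 0.48. Cdh5 and Tie1 were not detected on enough arrays. Of the 7, 3 had an unadjusted p under 0.05 (limma), where 4.11% of all tested probes did. The largest difference was that of Rgs5, at 1.08 (SE 0.179, unadjusted p = 0.000148, adjusted p = 0.362, limma). Summed raw signals, which include background, were 570 to 705 in heterozygous and 642 to 764 in null lens. Emcn was detected on 0 heterozygous and 3 null arrays, so it met the detection rule through the null arrays alone, which tilts its direction. Flt1 and Rgs5 were detected on 1 heterozygous and 3 null arrays, Kdr on 1 and 2, and Pecam1 on 2 and 1. The part of the detection rule in the vascular count was not tested. Red blood cell genes were higher for 4 of 4 tested of 5, with a median difference of 0.71. Their sums were 493 to 950 in heterozygous and 671 to 1254 in null lens. Of 11 mesenchyme markers 3 were tested, 2 higher and 1 lower, with a median difference of 0.31 and sums of 283 to 419 and 356 to 385. Foxc1 differed by 0.52 (SE 0.158, unadjusted p = 0.00849, adjusted p = 0.964, limma). Col1a1, Col1a2, Col3a1, Dcn, Lum, Postn and Twist1 were not detected on enough arrays. Of the cornea markers 0 of 4 were tested, of retina 2 of 7, of macrophages 2 of 5 and of pigmented epithelium, iris and ciliary body 1 of 7. No gene of these lists passed an adjusted p of 0.05 (limma). The part of these cells in the member values was not tested.

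Fzd6, a frizzled receptor known in mouse for hair and planar polarity, was detected on all 6 arrays by both of its probes. Probe ILMN_2775016 read 199, 190 and 174 raw units in heterozygous and 185, 222 and 225 in null lens. Null arrays b and c lay above every heterozygous array, and null array a lay among them. The difference was 0.22 (SE 0.153, 95% interval -0.12 to 0.57, adjusted p = 0.964). Probe ILMN_3004386 read 144, 128 and 111 in heterozygous and 123, 137 and 124 in null lens, a difference of 0.04 (SE 0.16) with overlapping groups.

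Fzd3, which acts with Fzd6 in planar polarity and in axon guidance, had 2 tested probes of 3. Probe ILMN_2777437 read 124, 118 and 97.5 in heterozygous and 109, 111 and 111 in null lens, a difference of -0.02 (SE 0.159). Probe ILMN_2801520 read 101, 101 and 94.4 in heterozygous and 93.4, 112 and 102 in null lens, a difference of 0.14 (SE 0.171). The 2 probes therefore differed in sign, each with groups that overlapped and an interval that held 0. The third probe, ILMN_2421436, was detected on null array c alone.

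Lrp5 and Lrp6 are the single-pass co-receptors of the canonical branch. All 4 probes of Lrp5 were detected on no array, with raw signals of 60.0 to 76.2, so they were not tested. Fitted without the detection filter, they differed by 0.01 to 0.09 on the log2 scale (adjusted p = 0.971 to 0.993, limma), from signals not above background. A transcript under the detection limit of these 4 probes is not shown to be absent. Lrp6, whose loss in mouse disturbs eye and limb development, passed the detection rule narrowly. Probe ILMN_2712949 read 87.2, 97.6 and 72.4 in heterozygous and 81.3, 74.4 and 83.4 in null lens and was detected on 2 arrays of each group. Probe ILMN_2420586 read 89.3, 74.7 and 77.7 in heterozygous and 77.3, 81.6 and 68.2 in null lens and was detected on 2 heterozygous arrays and 1 null array.

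The Lrp6 differences were -0.13 (SE 0.219) and -0.11 (SE 0.188), each with an adjusted p of 0.964. The probes gave the same sign and nearly the same size, yet they did not follow each other between arrays, with a Pearson correlation of -0.63 over the 6 arrays. For example, heterozygous array b was the highest array of ILMN_2712949 and the lowest of ILMN_2420586 after normalisation.

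Tcf7l2, a DNA-binding partner of beta-catenin, was read by 6 probes, of which 1 was tested. That probe, ILMN_2641647, read 94.3, 98.6 and 117 in heterozygous and 99.7, 104 and 105 in null lens. The heterozygous arrays held both the lowest and the highest value, with all null arrays between them. The difference was 0.06 (SE 0.236, 95% interval -0.47 to 0.59, adjusted p = 0.988), the largest SE among the member probes. Of the other 5 probes, 4 were detected on no array and 1, ILMN_3006739, on null array c alone. Their raw signals lay between 60.9 and 79.8.

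The annotation lists 2 start sites for Tcf7l2 that lie far apart, and transcripts from both carry the gene's name. The 250 bases before each start are shown because the annotation lists both. The platform annotation ties the tested probe and the untested ILMN_3006739 and ILMN_1245997 to the same RefSeq transcript, so detection also split within it. Which transcripts the 6 probes read was not tested. The sequences are from RefSeq on assembly GRCm38.p6, at chr19:55741560-55741809 and chr19:55895071-55895320, both on the plus strand, and capitals mark a TCF/LEF motif.
Tcf7l2 upstream start: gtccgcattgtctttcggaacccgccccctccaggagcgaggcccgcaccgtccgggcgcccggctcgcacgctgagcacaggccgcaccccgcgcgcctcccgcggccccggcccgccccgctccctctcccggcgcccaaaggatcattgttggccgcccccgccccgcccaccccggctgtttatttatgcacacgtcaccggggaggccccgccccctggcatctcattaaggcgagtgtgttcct
Tcf7l2 internal start: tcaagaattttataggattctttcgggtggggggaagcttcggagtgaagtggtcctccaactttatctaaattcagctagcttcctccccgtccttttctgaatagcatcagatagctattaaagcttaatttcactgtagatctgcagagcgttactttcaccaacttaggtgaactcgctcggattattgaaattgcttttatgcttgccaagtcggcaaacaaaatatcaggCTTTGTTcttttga
The internal start lies 153524 bases inside the gene. Its window has a GC content of 40.8%, against 72.8% before the upstream start.

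Axin2, a scaffold of the beta-catenin destruction complex that is itself a widely used transcriptional readout of canonical signalling, was detected on all 6 arrays by its 1 probe. ILMN_2896314 read 118, 110 and 96.5 raw units in heterozygous and 110, 119 and 91.5 in null lens. The null arrays held both the highest and the lowest value. The difference was -0.01 (SE 0.188, 95% interval -0.43 to 0.42, adjusted p = 0.999), so that changes of up to 1.33-fold higher or to 0.744 of the heterozygous signal lie inside the interval. The 250 bases before its annotated start, at chr11:108920099-108920348 on the plus strand of GRCm38.p6, are shown because Axin2 is the member read as a target of Tcf and Lef factors.
Axin2 start: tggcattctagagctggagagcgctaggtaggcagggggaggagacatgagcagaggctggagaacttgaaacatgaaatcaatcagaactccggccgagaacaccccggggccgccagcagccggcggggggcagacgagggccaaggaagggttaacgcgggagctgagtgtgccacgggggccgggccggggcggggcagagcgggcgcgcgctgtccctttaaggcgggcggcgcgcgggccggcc
This start lies 2521 bases inside the span of the gene, which has annotated transcripts that begin further upstream.

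The motif searched on either strand was CTTTGAA or CTTTGAT or CTTTGTA or CTTTGTT. The table of promoters held windows for 4 of the 10 members, Sfrp2, Sfrp5, Tcf7l2 and Axin2, and 1 of their 5 windows, the internal start of Tcf7l2, held a match (CTTTGTT, from base 14 to base 8 before the start). Of all 32851 windows of 250 bases 14.8% held at least 1 match. A match is a description of letters, and the windows without one say nothing of sites further away.

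**Figure D4:**
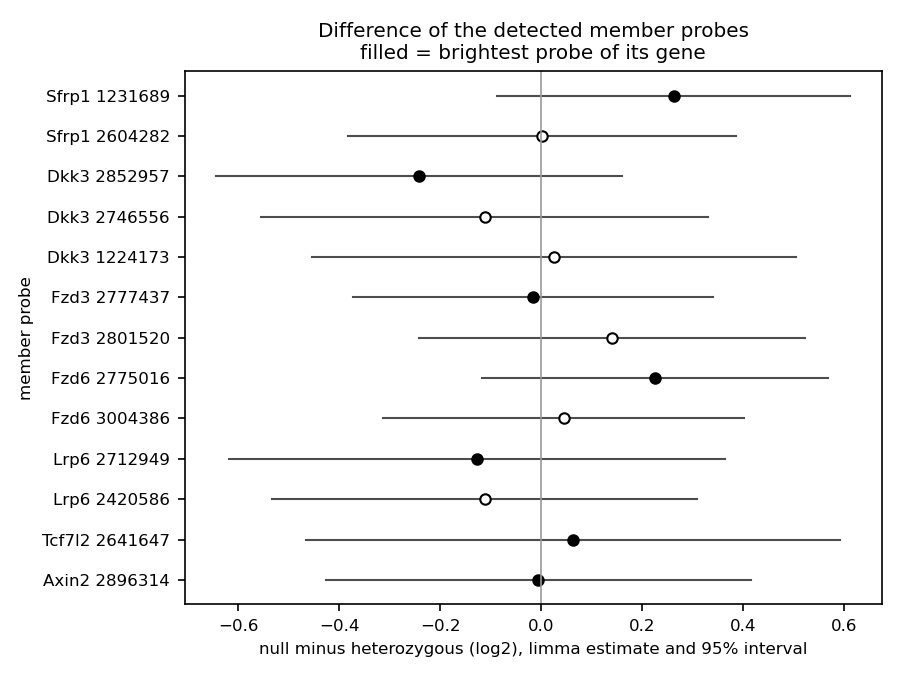
Null minus heterozygous difference (log2) of the 13 tested member probes with limma's 95% interval, filled for the brightest probe of each gene. All 13 intervals cross 0, and they reach from -0.64 for Dkk3 to 0.61 for Sfrp1.

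The rest of the pathway was read from lists of 111 further genes, of which 108 had a probe and 52 were tested. Of these 52 genes 0 passed in either direction (limma), and 26 differences were above 0 and 26 below. By their brightest probe 2 of the 52 had an unadjusted p under 0.05 (limma), where 4.11% of all tested probes did. Their median difference was -0.00086. None of the genes named below passed, and by their brightest probes the adjusted p was 0.964 to 0.993 (limma).

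Of the 19 Wnt ligands 5 were tested, 3 higher and 2 lower. Wnt7b, at 2681 ± 270 (SD, n = 3) raw units for heterozygous lens and 2423 ± 104 (SD, n = 3) for null lens, differed by -0.12, with a second probe at 0.01. Wnt5b differed by 0.23 and Wnt5a by -0.17. Of the genes for Wnt secretion, the carrier gene Wls differed by -0.06, with further probes at 0.04 and 0.02. The acyltransferase gene Porcn differed by 0.05, with a second probe at 0.26. Of 12 other receptors 5 were tested, among them Fzd7 at 0.12, Fzd2 at -0.08 and Fzd5 at -0.02. Of 8 genes of the Lrp4 and R-spondin group 2 were tested, Lrp4 at 0.08 and Rspo1 at 0.11. Of 11 further genes listed as secreted antagonists 1 was tested, Sostdc1 at 0.19. Frzb, Sfrp4, Dkk1, Dkk2, Dkk4, Wif1, Sost and others were not detected on enough arrays, while the members Sfrp1 and Dkk3 were.

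Apcdd1, a membrane inhibitor of Wnt receptors, had the largest difference in size among the brightest probes of these 52 genes. Over all their tested probes a dimmer one of Id2, a target gene, was larger in size, at -0.57 (SE 0.352, adjusted p = 0.964, limma), where the brightest Id2 probe gave 0.18. Apcdd1 was the 1 tested gene of 5 membrane inhibitors, and its probes gave 0.55 (SE 0.229, unadjusted p = 0.0385) and 0.37 (SE 0.167, unadjusted p = 0.0519). The adjusted p was 0.964 for each (limma), and the brighter probe was detected on 2 heterozygous and 3 null arrays with overlapping groups. Of 19 cytoplasmic transducers 14 were tested, 5 higher and 9 lower. Dvl1, an adaptor that binds frizzled receptors, differed by 0.42 (SE 0.18, unadjusted p = 0.0425, adjusted p = 0.964, limma), with all null arrays above the heterozygous ones. By their brightest probes this also held for Ctnnbip1, Tle3 and Cd44, while all null arrays lay below for Axin1 and Prickle1. Of all tested probes, 10.9% did not overlap in either direction and 5.43% did so with null higher. Ctnnbip1, which binds beta-catenin and blocks its contact with Tcf factors, differed by 0.26. Apc, a scaffold of the destruction complex, was detected on 0 heterozygous and 3 null arrays, so it met the detection rule through the null arrays alone, which tilts its direction. Its groups overlapped and its adjusted p was 0.964 (limma). Against the lowest detected signal, where Apc itself was dimmer, the null mean of these arrays was at least 1.12-fold the heterozygous one. This ratio of means leaves out the spread between arrays and has the direction that the rule favours, so it sets no lower limit on a genotype difference.

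Of 13 nuclear partners 9 were tested, 5 higher and 4 lower. Pygo1 differed by -0.40. It was near the detection limit, at mean raw signals of 88.5 in heterozygous and 76.4 in null lens, and was detected on 3 heterozygous and 2 null arrays. The corepressor gene Tle3 differed by 0.31, with a second probe at 0.43 (unadjusted p = 0.0439, limma). Ctbp2 differed by 0.26, with a second probe at 0.14. Of 10 other feedback and target genes 5 were tested, with Cd44 at 0.22 and further Cd44 probes at 0.29 and 0.39, the last with the smallest unadjusted p of the pathway probes (unadjusted p = 0.0212, adjusted p = 0.964). Tnfrsf19 differed by -0.23 and the cyclin gene Ccnd1 by -0.17, where other Ccnd1 probes gave 0.30 and -0.01. Of 12 planar polarity genes 8 were tested, 3 higher and 5 lower, with Prickle2 at 0.39, Prickle1 at -0.22 and the formin gene Daam1 at 0.17. Prickle2 was near the detection limit, at mean raw signals of 79.7 in heterozygous and 86.6 in null lens. It was detected on 1 heterozygous and 3 null arrays. A second Prickle1 probe gave 0.03, and further Daam1 probes gave 0.22 and -0.24.

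**Figure D5:**
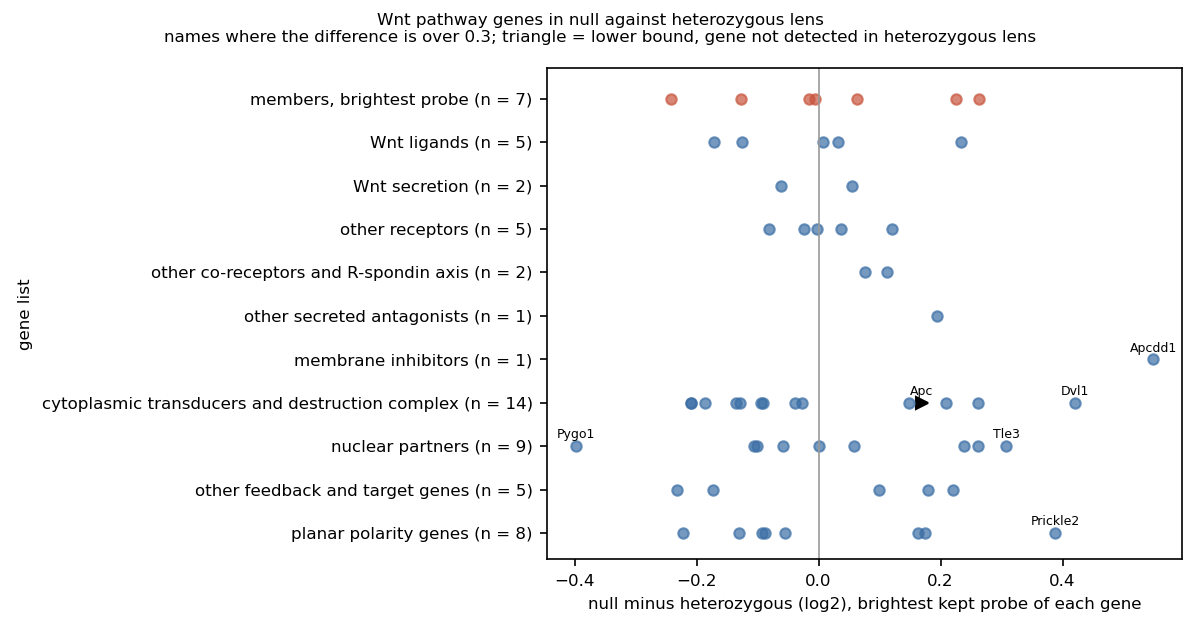
Null minus heterozygous difference (log2) of the brightest tested probe of each gene, for the 7 members (red) and the other pathway lists (blue). A triangle marks the lower bound of Apc, which holds for the means of these arrays alone. The members lie between -0.24 and 0.26, inside the span of the other lists, from -0.40 for Pygo1 to 0.55 for Apcdd1.

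Likeness of pattern was measured as the Pearson correlation of log2 values over the 6 arrays between the brightest probe of each member and that of every other gene tested. The closest genes were Fbxl6 (0.99) and Glycam1 (0.99) for Sfrp1, Ppp1r9b (0.99) and Ints6 (0.99) for Dkk3, Fbln1 (0.98) and Yeats4 (0.97) for Fzd3 and Rtcb (0.99) and Noc3l (0.98) for Fzd6. For Lrp6 they were Smim27 (0.98) and Pbx4 (0.98), for Tcf7l2 Nckap1l (0.98) and Leo1 (0.98) and for Axin2 Ilvbl (1.00) and Lix1 (0.98). These values describe 6 arrays whose hybridisation and normalisation all genes share. The number of genes with a correlation above 0.9 ran from 43 for Tcf7l2 to 544 for Dkk3, whose pattern is that of 1 low array.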

How the data were processed

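Total RNA was labelled as biotinylated cRNA for Illumina bead arrays, per the labels' protocols. The authors deposited a raw intensity per probe and array, not normalised between arrays, beside its detection p-value, per the file headers. They also deposited a table of normalised intensity, whose method is not given in the sources used here.

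Probes were named from the platform annotation, and gene spans and promoter sequences came from RefSeq on GRCm38.p6. Raw columns name the genotype only. By values, each ranked its probes as 1 numbered column of the normalised table did (rank correlation 1, the next highest 0.805 to 0.827), a link that was not used to number the arrays. The neqc function of limma 3.58.1 under R 4.3.3 took negative controls from the steps of the detection p-values, corrected the background, added 16, quantile-normalised and took log2. Probes that met the detection rule entered 1 linear model across both genotypes (lmFit, eBayes, no covariate, two-sided), and Benjamini-Hochberg adjustment ran over all 14636 of them. The brightest tested probe represents a gene. The fit was tested on simulated data with independent noise, no outlying array and changes larger than any member difference. That run therefore does not bear on differences as small as those of the members.

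Members and lists were chosen with earlier results of these data known. Besides the members, up to 3 genes of smallest p per pathway list and the 2 genes most like each member are described, and undetected genes and markers are named as part of their lists' counts. Axin1 is named for groups that did not overlap, and Id2 for the size of a dimmer probe's difference. Rgs5 and Foxc1 are named for the largest difference of their marker lists. Alternatives covered background, scaling, source table, filter, weights, variance trend, probe averaging and left-out arrays. The headers name no slide, so no slide block was fitted.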

Additional observations from a re-analysis of the deposited data

How the results depend on the processing

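No member probe and no other pathway gene passed under any alternative run, and over 198 probe values under alternatives the sign turned in 37. The count of member probes with an unadjusted p under 0.05 (limma) was 0, and became 1, Sfrp1 ILMN_1231689, without background correction (unadjusted p = 0.0453) and without the detection filter (unadjusted p = 0.0462). The positive differences of Sfrp1 ILMN_1231689 (0.15 to 0.33) and Fzd6 ILMN_2775016 (0.094 to 0.33) and the negative one of Dkk3 ILMN_2852957 (-0.36 to -0.05) kept their sign in all of them. The mean of both Sfrp1 probes differed by 0.13.

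Signs turned under these settings. With array weights, which gave null array a 3.44 and null array b 0.208, Sfrp1 ILMN_2604282 was at -0.036, Dkk3 ILMN_2746556 at 0.044, Dkk3 ILMN_1224173 at -0.044, Fzd3 ILMN_2801520 at -0.061, Fzd6 ILMN_3004386 at -0.029 and Axin2 at 0.011. With median scaling Fzd3 ILMN_2777437 was at 0.042 and Axin2 at 0.052, without background correction Axin2 was at 0.0012, and with the mean of its tested probes Fzd3 was at 0.062. Without both null array b and heterozygous array c, chosen after seeing the data, Sfrp1 ILMN_2604282 was at -0.20, Dkk3 ILMN_2746556 at 0.095, Dkk3 ILMN_1224173 at -0.043 and Fzd6 ILMN_3004386 at -0.096. The cause was not tested.

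Leaving out 1 array at a time gave -0.10 to 0.11 for Sfrp1 ILMN_2604282, -0.25 to 0.11 for Dkk3 ILMN_2746556, -0.18 to 0.18 for Dkk3 ILMN_1224173, -0.13 to 0.068 for Fzd3 ILMN_2777437, -0.043 to 0.15 for Fzd6 ILMN_3004386, -0.31 to 0.065 for Lrp6 ILMN_2712949, -0.27 to 0.020 for Lrp6 ILMN_2420586, -0.12 to 0.35 for Tcf7l2 and -0.13 to 0.17 for Axin2.

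In the authors' normalised values, with and without the replicate number as a block, Sfrp1 ILMN_2604282 was at -0.044 and Dkk3 ILMN_1224173 at -0.0091, and 0 member probes passed. The values gave no clear pairing by number: deviations of same-numbered samples correlated at 0.16, -0.15 and -0.15, and not every sample correlated best with its own number. Deviations from a group mean of 3 samples depend on each other, so this check cannot exclude a pairing. Signal near background limits Fzd3, Lrp6, Tcf7l2 and Axin2, and the differences of Lrp5 (0.01 to 0.09), Sfrp2 (-0.19) and Sfrp5 (-0.02), given by the fit without the detection filter alone, rest on signals at or near background.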
